A study of Mus musculus with 4 samples.

Results

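Urocortin 3 and the receptors of the urocortin 3 and somatostatin signals between islet cells were followed in whole mouse islets kept at low or high glucose. The 8 genes were urocortin 3 (*Ucn3*), the receptors of the corticotropin-releasing hormone (CRH) family (*Crhr1* and *Crhr2*) and the somatostatin receptors (*Sstr1*, *Sstr2*, *Sstr3*, *Sstr4* and *Sstr5*). They were found by gene symbol among the 24012 symbols of the deposited table, where they had 13 entries, and a gene with several entries is given by the one of highest mean. Islets came from wild type male C57bl6 mice 3 months of age, and all groups shared an overnight culture at 11 mM glucose followed by 2 h at 2.8 mM glucose. The groups were then 2 libraries of islets at 2.8 mM and 2 libraries of islets at 16.8 mM glucose. The series design states 12 h of stimulation throughout, but by the labels of single samples the treatment lasted 2 h at 2.8 mM and 12 h at 16.8 mM, so the effects of time and glucose cannot be told apart if the labels hold. Islets were pooled before they were divided, and nothing states that the replicates came from separate animals, so every p-value measures the spread between these libraries only, which may be technical. With 2 libraries against 2, an exact permutation test of a single value cannot go below p = 0.33 (two-sided), so tests come from limma, fitted across all transcripts.

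Urocortin 3 is a peptide of the CRH family that mouse beta cells store and release with insulin. It binds CRHR2, a receptor coupled to the stimulatory G protein, and drives delta cells to release somatostatin. Somatostatin then acts on neighbouring beta and alpha cells through receptors coupled to inhibitory G proteins, which lower cAMP, open inwardly rectifying potassium channels and restrain the secretion of insulin and glucagon. The axis is thus a local feedback loop, with a ligand made in beta cells, a relay in delta cells and receptors on the cells that receive somatostatin. RNA of a whole islet is a mixture of these cells, in which fewer cells of a type and less RNA per cell cannot be told apart.

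At 16.8 mM glucose *Ucn3* rose by 1.53 times and *Sstr3* fell to 0.598 of its level at 2.8 mM, and these were the only genes of the 8 with a mean of at least 1 RPKM. RPKM are reads scaled to the length of a transcript and to the depth of its library. In this table the length behind a value was mostly the genomic span of the transcript, introns included: 84.9% to 86.0% of low values in a library were whole reads (within 0.1 read) over the span, and 18.4% to 20.2% were whole over the summed exons. Depths recovered from these steps lay between 50710000 and 60620000 reads, so 1 read in a span of 1 kb was worth 0.0165 to 0.0197 RPKM. Each depth was the one at which low values over the span came nearest to whole reads. No depth was fitted to the exons, so the shares over span and exons were not found on equal terms. Both tested genes passed an adjusted p of 0.05, which 33.4% of all 7867 tested transcripts did, 10.7% as higher and 22.8% as lower at 16.8 mM. The remaining 6 genes lay under the minimum and are given with their reads. The minimum acts on values per span, so a gene with long introns can lie under it on many reads.

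The stretches of 250 bases upstream of the RefSeq starts of *Ucn3* and *Sstr3*, the genes that changed in opposite directions, are shown with that of *Sstr2*, a receptor of the same family whose levels overlapped between the groups. The sequences are from RefSeq (GRCm38.p6). Each matched its own chromosome in NCBIM37 (mm9), the build of the files, exactly and once on the strand of the gene, and other chromosomes were not searched. They lie at chr13:3944596-3944845 (minus strand) for *Ucn3*, chr15:78374776-78375025 (minus strand) for *Sstr3* and chr11:113480391-113480640 (plus strand) for *Sstr2*, and are printed 5′ to 3′ on the strand of the gene. Capitals mark 4 motifs searched on both strands: TAAT (the core of homeodomain sites), CACGTG (an E-box), TGACG (the short form of the cAMP response element) and TGACGTCA (its palindrome, which holds TGACG on each strand).
Ucn3: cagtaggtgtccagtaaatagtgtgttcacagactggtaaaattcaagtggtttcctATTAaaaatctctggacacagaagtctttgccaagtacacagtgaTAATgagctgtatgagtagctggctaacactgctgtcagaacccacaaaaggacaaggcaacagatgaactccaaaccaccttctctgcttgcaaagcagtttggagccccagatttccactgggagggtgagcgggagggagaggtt
Sstr3: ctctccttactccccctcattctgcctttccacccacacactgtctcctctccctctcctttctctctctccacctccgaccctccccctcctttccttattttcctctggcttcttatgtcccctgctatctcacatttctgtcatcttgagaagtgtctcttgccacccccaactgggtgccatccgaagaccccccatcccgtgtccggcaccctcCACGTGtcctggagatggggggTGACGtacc
Sstr2: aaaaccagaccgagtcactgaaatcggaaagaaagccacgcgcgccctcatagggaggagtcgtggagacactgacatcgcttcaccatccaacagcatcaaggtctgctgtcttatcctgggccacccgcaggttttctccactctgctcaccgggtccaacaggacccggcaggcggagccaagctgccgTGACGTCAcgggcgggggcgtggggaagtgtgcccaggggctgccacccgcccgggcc
The *Ucn3* stretch held 2 copies of TAAT, which began 193 and 148 bases before the start, and none of the other motifs. The *Sstr3* stretch held CACGTG at 31 bases and TGACG at 9 bases before the start. The *Sstr2* stretch held the palindrome TGACGTCA at 58 bases before the start and is the richest in G and C of these (63.6%, against 57.2% for *Sstr3* and 46.4% for *Ucn3*). Among 32851 RefSeq promoter stretches of that length, TAAT was present in 54.9%, TGACG in 17.8%, CACGTG in 6.02% and TGACGTCA in 1.55%. The table holds a second *Sstr3* start, 2939 bases downstream, whose upstream stretch held none of these motifs, nor did those of *Crhr1*, *Crhr2* and *Sstr4*. The *Crhr2* stretch, at 55083011 to 55083260 on chromosome 6, lies beside the start of the lower entry NM_9953 (55083008). It is far upstream of the start of the entry of highest mean (55067907). No upstream stretch was available for *Sstr1* and *Sstr5*, so none was searched. Such matches describe the letters only.

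*Ucn3* (NM_31250) lies on the minus strand of chromosome 13 at 3939934 to 3944595 in NCBIM37, a span of 4662 bases that holds 2 exons and overlaps no other annotated gene. Its levels were 14.2 and 16.4 RPKM in replicates 1 and 2 at 2.8 mM and 20.8 and 26.0 RPKM at 16.8 mM. Both 16.8 mM libraries were above both 2.8 mM libraries. The means were 15.3 ± 1.51 RPKM (SD, n = 2) and 23.4 ± 3.62 RPKM, from 3874 and 3962 reads in the former and 5891 and 6139 in the latter. On the log2(RPKM + 0.5) scale the difference was 0.59 (SE 0.15, 95% interval 0.23 to 0.95, adjusted p = 0.0241 by limma with Benjamini-Hochberg adjustment). The median of all tested transcripts was -0.11 on that scale, and *Ucn3* stood 0.70 above it. Of the 2734 tested transcripts that were higher at 16.8 mM, *Ucn3* was number 482 by size of the difference and number 611 by p. The call rests on 1 library: without 16.8 mM replicate 2, the highest of the 4, the difference was 0.44 and missed the threshold (adjusted p = 0.139), and it also missed it after quantile normalization (0.63, adjusted p = 0.0537) and when no minimum level was set (0.59, adjusted p = 0.0897).

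The other ligands of both receptor families were read from a list of 6 genes, of which somatostatin alone reached 1 RPKM. *Sst*, the somatostatin gene that marks delta cells, had 587 and 440 RPKM at 2.8 mM and 692 and 686 RPKM at 16.8 mM. Both 16.8 mM libraries were higher, but the 2.8 mM libraries were far apart (513 ± 104 RPKM, against 689 ± 4.21 RPKM), and the log2 difference of 0.44 (SE 0.16) did not pass (adjusted p = 0.0761). It did pass in a limma voom fit on the reconstructed reads (0.44, adjusted p = 0.0155). *Crh*, the hormone that gives the family its name, was listed at 0 in all 4 libraries, a count that allows up to 3 reads, or 0.0248 to 0.0296 RPKM by library. *Ucn* (urocortin) had 0.0378 and 0.0425 RPKM at 2.8 mM and 0.145 and 0.0217 RPKM at 16.8 mM, from 1 to 7 reads. *Crhbp*, whose product binds and sequesters CRH and urocortin, had 0.0356 and 0.0300 RPKM at 2.8 mM and 0.0147 and 0.0205 RPKM at 16.8 mM, from 12 to 28 reads. Urocortin 3 was thus the only CRH family ligand with more than 0.2 RPKM in any library. *Ucn2* and the somatostatin-like *Cort* stayed at 0.0171 to 0.138 RPKM.

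**Figure D1:**
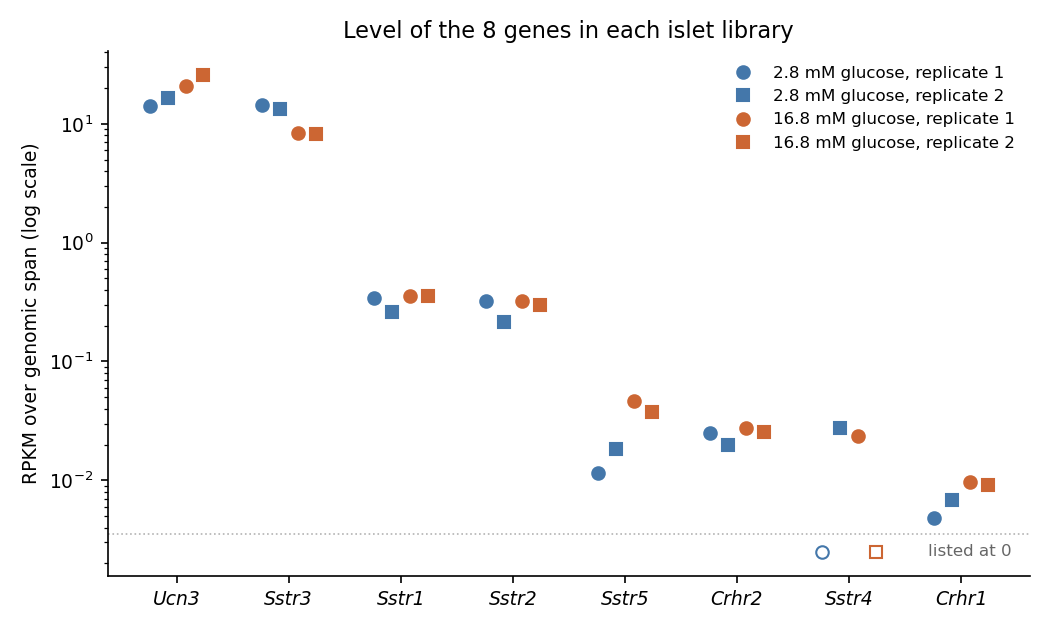
RPKM of the 8 genes in each library, on a log axis, with 2.8 mM glucose in blue, 16.8 mM in orange, circles for replicate 1 and squares for replicate 2; open symbols under the dotted line are values listed at 0. *Ucn3* and *Sstr3* sit between 8.29 and 26.0 RPKM, and the other 6 genes all sit under 0.4 RPKM.

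Per kilobase of span the receptors of the CRH family were low in these islets, on 12 to 45 reads a library in their highest entries. *Crhr2*, the receptor that binds urocortin 3, had 0.0252 and 0.0200 RPKM at 2.8 mM and 0.0278 and 0.0254 RPKM at 16.8 mM in its highest entry (NM_1288620, chromosome 6 at 55041207 to 55067907, minus strand). The lower 16.8 mM value was barely above the higher 2.8 mM value. These values stand for about 39, 28, 45 and 34 reads over a span of 26701 bases, numbers that did not come out whole, so the span behind them is uncertain. A second entry (NM_9953) with a longer span gave 0.0159 and 0.0134 RPKM at 2.8 mM and 0.0180 and 0.0165 RPKM at 16.8 mM, and the other 2 entries repeated these values. In a voom fit, held to a mean of 20 reads or more, the log2 difference was 0.23 with a 95% interval of -0.32 to 0.78 (adjusted p = 0.495), an interval that holds both a fall and a rise.

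*Crhr1*, which binds CRH and urocortin but hardly urocortin 3, had 0.00480 and 0.00680 RPKM at 2.8 mM and 0.00970 and 0.00920 RPKM at 16.8 mM (NM_7762, chromosome 11 at 103994169 to 104036837, plus strand, 13 exons). These are 12, 15, 25 and 20 reads, in that order, over a span of 42669 bases. Both 16.8 mM libraries were higher. The voom fit with a lower limit of 5 reads gave a log2 difference of 0.72 with a 95% interval of -0.07 to 1.51 (adjusted p = 0.144), so a difference was not detectable at this depth. The length behind these values holds introns, but whether reads over introns were counted cannot be read from them. For its alpha and beta cell libraries the paper describes counts over RefSeq exons. Per kilobase of summed exons *Crhr2* (0.371 to 0.515) was above *Crhr1* (0.0833 to 0.168) in every library, as it was per kilobase of span.

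*Sstr3*, whose product sits on primary cilia, those of beta cells included, was by far the most abundant somatostatin receptor, and its adjusted p was the smaller of the tested pair. It lies on the minus strand of chromosome 15 at 78367445 to 78374775 (NM_9218, a span of 7331 bases with 3 exons). The levels were 14.3 and 13.4 RPKM at 2.8 mM and 8.32 and 8.29 RPKM at 16.8 mM, from 6133 and 5105 reads and from 3698 and 3081 reads. The groups were far apart and the replicates close together, with means of 13.9 ± 0.650 RPKM and 8.30 ± 0.0240 RPKM (SD, n = 2). The log2 difference was -0.71 (SE 0.11, 95% interval -0.97 to -0.45, adjusted p = 0.00423 by limma). Against the median of all tested transcripts it was -0.59. Of the 5133 tested transcripts that were lower at 16.8 mM, *Sstr3* was number 313 by size and number 387 by p. Leaving out any library kept it between -0.75 and -0.66.

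**Figure D2:**
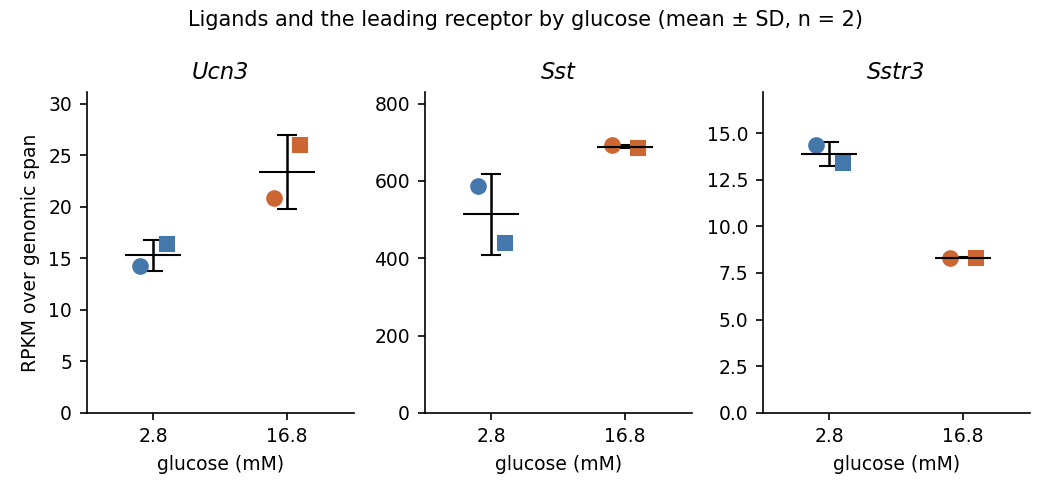
RPKM of *Ucn3*, *Sst* and *Sstr3* at 2.8 and 16.8 mM glucose, each on its own linear axis from 0, with a point for each library and a bar for the mean ± SD (n = 2). *Ucn3* goes from 15.3 to 23.4 RPKM and *Sstr3* from 13.9 to 8.30 RPKM without overlap, and the 2.8 mM libraries of *Sst* lie at 587 and 440 RPKM.

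The levels of *Ucn3* and *Sstr3* moved in opposite directions, and on the RPKM scale they parted. At 2.8 mM the libraries of *Ucn3* and *Sstr3* overlapped, with a ratio of *Ucn3* to *Sstr3* of 0.993 and 1.22 in RPKM. At 16.8 mM the ratio was 2.50 and 3.13, and *Ucn3* was above *Sstr3* in both libraries. Per kilobase of summed exons the ratio was 1.68 and 2.06 at 2.8 mM and 4.23 and 5.30 at 16.8 mM, so on that scale *Ucn3* was higher in all 4 libraries. With exons as the length, the RPKM of *Ucn3* went from 48.3 ± 4.76 to 73.8 ± 11.4 and that of *Sstr3* from 25.9 ± 1.21 to 15.5 ± 0.0449 (SD, n = 2). By mean RPKM over all libraries *Ucn3* was number 491 and *Sstr3* number 862 of 24012 symbols.

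Among the somatostatin receptors *Sstr1* and *Sstr2* formed a second tier, both near 0.3 RPKM. *Sstr1* (NM_9216, chromosome 12 at 59312759 to 59314874, plus strand) had 0.344 and 0.259 RPKM at 2.8 mM and 0.358 and 0.354 RPKM at 16.8 mM, from about 42, 28, 46 and 38 reads that did not come out whole over its span of 2116 bases. The 16.8 mM libraries were above the 2.8 mM libraries, the nearer by a margin smaller than the gap between the 2.8 mM replicates. The voom fit gave a log2 difference of 0.27 with a 95% interval of -0.29 to 0.82 (adjusted p = 0.427). *Sstr2* (NM_9217, chromosome 11 at 113480790 to 113487209, plus strand), a receptor known from alpha cells, had 0.320 and 0.216 RPKM at 2.8 mM and 0.324 and 0.298 RPKM at 16.8 mM. Its groups overlapped, on 120, 72, 126 and 97 reads over 6420 bases, and the voom difference was 0.23 with a 95% interval of -0.25 to 0.71 (adjusted p = 0.422).

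*Sstr2* is the only gene of the 8 whose span overlaps another annotated gene. It lies whole inside *Slc39a11*, a zinc transporter gene on the minus strand, which had 0.137 and 0.134 RPKM at 2.8 mM and 0.0950 and 0.0848 RPKM at 16.8 mM. The library kit does not mark strand, so reads of the pair cannot be told apart within the *Sstr2* span. A second *Sstr2* entry (NM_1042606) had 0.241 and 0.118 RPKM at 2.8 mM and 0.232 and 0.241 RPKM at 16.8 mM, and its groups overlapped too.

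*Sstr5* and *Sstr4* were the scarcest somatostatin receptors. *Sstr5* (NM_1191008, chromosome 17 at 25626820 to 25634198, minus strand) had 0.0115 and 0.0182 RPKM at 2.8 mM and 0.0467 and 0.0372 RPKM at 16.8 mM. These are 5, 7, 21 and 14 reads, in that order, with both 16.8 mM libraries higher and a ratio of mean RPKM of 2.82. With no minimum level the limma fit called it higher (0.07 on the log2(RPKM + 0.5) scale, which understates low genes, adjusted p = 0.0493), where 14.1% of transcripts were called, 4.56% higher and 9.52% lower. The voom fit down to 5 reads called it too (log2 difference 1.47, SE 0.43, 95% interval 0.49 to 2.45, adjusted p = 0.0271), where 34.7% were called and 11.1% were called higher. That limit of 5 reads was chosen after the values were seen. With no minimum and the replicate number as a block, limma did not call *Sstr5* (adjusted p = 0.0891), nor any other transcript. *Sstr4* (NM_9219, chromosome 2 at 148221113 to 148222500, plus strand), a gene of 1 exon, had 0 and 0.0277 RPKM at 2.8 mM and 0.0238 and 0 RPKM at 16.8 mM, or 0, 2, 2 and 0 reads. Its zeros allow up to 0.0370 and 0.0426 RPKM, and both groups lie under that limit, so no fold is given.

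Over the 8 genes, the groups did not overlap for 6, of which 5 were higher at 16.8 mM. Across all transcripts with any value above 0 the groups did not overlap for 60.2%, and 22.0% were separated with 16.8 mM higher. Among the tested transcripts, to which *Ucn3* and *Sstr3* belong, 22.2% were separated with 16.8 mM higher and 48.3% with 16.8 mM lower. In the voom fit on at least 20 reads, 40.1% of 17041 transcripts were called, 12.7% higher and 27.4% lower, and of the 5 genes it held, *Ucn3* (0.61, adjusted p = 0.0021) and *Sstr3* (-0.74, adjusted p = 9.7e-05) were called.

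*Sstr3* accounted for most of the summed somatostatin receptor level in every library. The sum over the 5 receptors was 15.01 and 13.94 RPKM at 2.8 mM and 9.07 and 8.98 RPKM at 16.8 mM. The share of *Sstr3* was 95.5% and 96.3% at 2.8 mM and 91.7% and 92.3% at 16.8 mM, lower in both 16.8 mM libraries. The share of *Sstr1* was 2.29% and 1.86% at 2.8 mM and 3.95% and 3.94% at 16.8 mM, and that of *Sstr2* was 2.13% and 1.55% at 2.8 mM and 3.57% and 3.32% at 16.8 mM. *Sstr5* reached 0.515% and *Sstr4* 0.262% at most. Per kilobase of summed exons the share of *Sstr3* was 93.8% and 95.1% at 2.8 mM and 88.9% and 89.7% at 16.8 mM. The order of *Sstr1* and *Sstr2* depends on the length used: per span *Sstr1* was above *Sstr2* in every library, and per exon *Sstr2* (0.902 to 1.35) was above *Sstr1* (0.313 to 0.432) in every library. Likewise *Crhr2* was above *Sstr5* per span at 2.8 mM and below it at 16.8 mM, and above it in all libraries per exon. *Crhr2* was also below *Sstr1* per span and above it per exon (0.371 to 0.515 against 0.313 to 0.432) in every library.

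**Figure D3:**
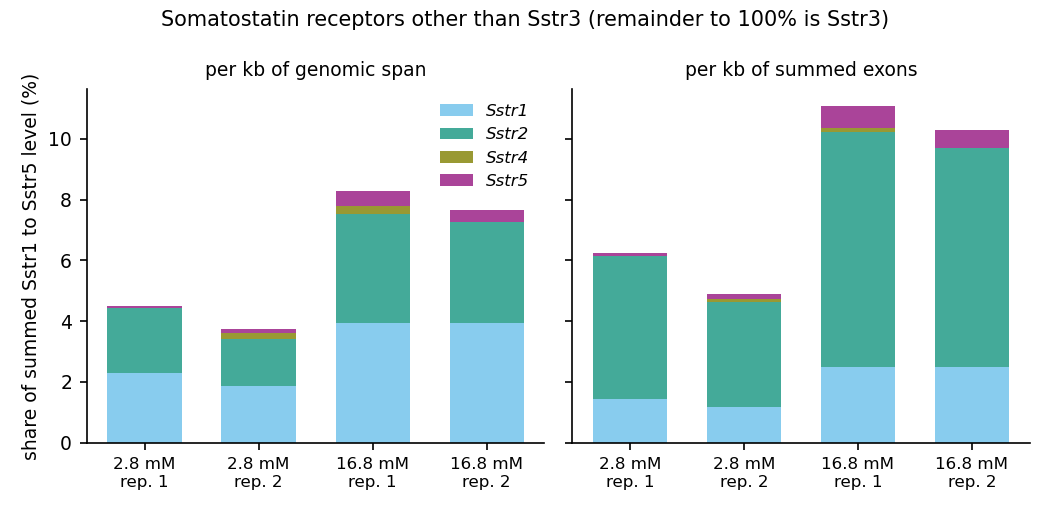
Share of *Sstr1*, *Sstr2*, *Sstr4* and *Sstr5* in the summed level of the 5 somatostatin receptors in each library, in percent, per kilobase of genomic span on the left and of summed exons on the right; the remainder to 100% is *Sstr3*. The bars are taller in both 16.8 mM libraries, where *Sstr3* holds 91.7% and 92.3% per span, and *Sstr2* is the larger part on the right only.

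The receptors were compared with regard to reads that they might share, by coding sequence for identity and by whole transcript for the longest identical stretch. Over the 10 pairs of somatostatin receptors the identity of aligned bases was 60.1% to 69.9%, and the longest identical stretch was 41 bases, between *Sstr3* and *Sstr5*. That is shorter than the reads of 50 bases, but a read aligned with mismatches could still fit another receptor. The sharing of reads itself was not tested. *Crhr1* and *Crhr2* were 72.0% identical with a longest stretch of 24 bases.

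The machinery on which these receptors act was read from 3 lists: 7 G protein alpha subunits, 4 inwardly rectifying potassium channel subunits and 7 receptor kinases and arrestins. With the ligands these made 24 genes, of which 8 were tested, 0 were called higher and 2 were called lower, against 33.4% of all tested transcripts in either direction. *Gnai2*, an alpha subunit of the inhibitory G proteins that somatostatin receptors use, had 32.7 and 31.5 RPKM at 2.8 mM and 15.8 and 14.3 RPKM at 16.8 mM. It fell by 1.07 on the log2 scale (SE 0.12, adjusted p = 0.00143). *Arrb2*, a beta-arrestin that uncouples activated receptors, had 2.92 and 2.74 RPKM at 2.8 mM and 1.94 and 1.66 RPKM at 16.8 mM, and fell by 0.54 (SE 0.10, adjusted p = 0.00697). Neither gene's groups overlapped.

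The other 6 tested genes of these lists did not pass in limma. *Gnas*, the stimulatory subunit that CRHR2 uses, had a log2 difference of 0.02 (adjusted p = 0.924), *Gnao1* of 0.09, *Gnai3* of 0.26 (adjusted p = 0.0817), *Adrbk1* of -0.22 and *Adrbk2* of -0.21. The 4 potassium channel subunits were all under the minimum. Of these *Kcnj6* had 0.0618 and 0.0607 RPKM at 2.8 mM and 0.101 and 0.0904 RPKM at 16.8 mM, and the voom fit called it higher (0.64, adjusted p = 0.0011). *Kcnj5* had 0.0900 and 0.127 RPKM at 2.8 mM and 0.0548 and 0.0875 RPKM at 16.8 mM, lower without overlap, and missed the threshold in voom (-0.64, adjusted p = 0.0582). *Kcnj3* and *Kcnj9* overlapped between the groups. The lists were sensitive to the model: the voom fit called 10 of 18 genes, against 40.1% of all it held. It called 4 higher (*Sst*, *Gnai3*, *Gnaz* and *Kcnj6*) and 6 lower (*Gnai1*, *Gnai2*, *Adrbk1*, *Adrbk2*, *Grk6* and *Arrb2*).

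**Figure D4:**
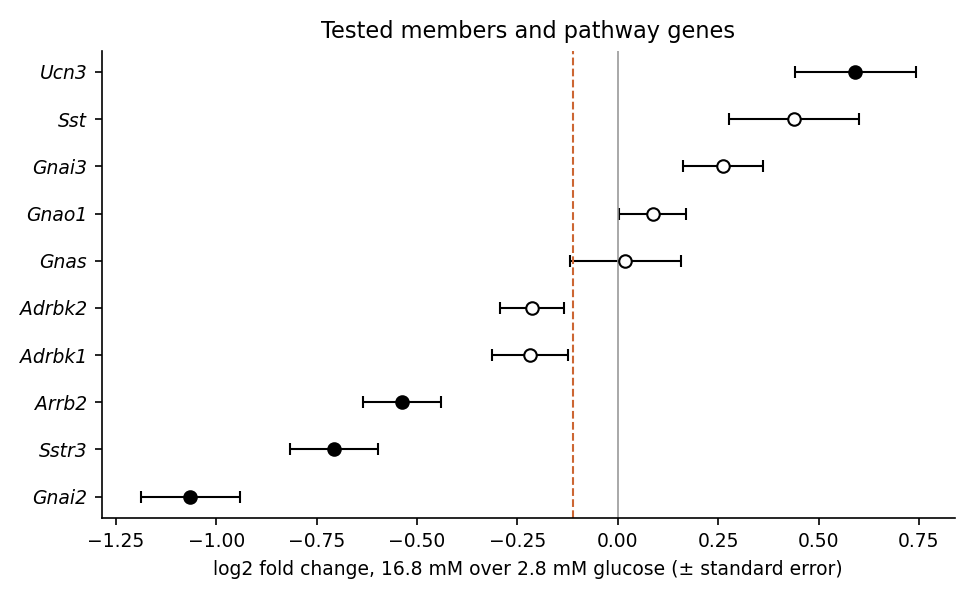
Log2 difference (16.8 mM over 2.8 mM glucose, log2(RPKM + 0.5) scale) of the 10 tested genes of the axis and its lists, with bars of 1 standard error; filled points passed an adjusted p of 0.05, the grey line marks 0 and the dashed line the median of all tested transcripts at -0.11. *Ucn3* is the only filled point on the right, and *Arrb2*, *Sstr3* and *Gnai2* are filled on the left.

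The cell types of the islet were followed by marker lists beside these results. Of 8 beta cell markers, all tested, 6 rose at 16.8 mM and 0 fell in the limma fit, where 10.7% of all tested transcripts were called higher and 22.8% lower, with a median log2 difference of 0.98 and a summed level of 22930 and 20578 RPKM at 2.8 mM and 43890 and 41139 RPKM at 16.8 mM. *Mafa*, a transcription factor of mature beta cells, rose by 2.44 (adjusted p = 4.2e-04), *G6pc2*, a glucose-6-phosphatase subunit, by 2.80, *Ins1* by 1.77, *Ero1lb* by 1.03, *Iapp* by 0.93 and *Ins2* by 0.75. *Nkx6-1* (0.29) and *Slc2a2* (0.40) did not pass in limma, and voom called both (adjusted p = 0.0369 and 0.0147) and so all 8 markers higher. *Ucn3*, itself a beta cell gene, was thus 0.59 on a scale where the beta cell markers ranged from 0.29 to 2.80, and *Sstr3* was -0.71. The part of the beta cell RNA in either result was not tested.

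Markers of delta cells, the source of somatostatin and the target of urocortin 3, did not pass in limma: 0 of 3 tested, where 33.4% of all tested transcripts were called, with a summed level of 598 and 447 RPKM at 2.8 mM and 704 and 696 RPKM at 16.8 mM, nearly all of it *Sst*. *Hhex*, *Ghsr* and *Rbp4* overlapped between the groups, and *Hhex* had a log2 difference of 0.00. In voom, which called 40.1% of transcripts, *Sst* was the 1 delta cell marker of 4 called. Alpha cell markers were 0 of 4 called in limma (2172 and 1665 RPKM at 2.8 mM, 2114 and 1486 RPKM at 16.8 mM). The PP cell marker *Ppy* and the stromal and leukocyte lists were called by neither limma (1 tested gene each) nor voom. The duct marker *Krt19* was not called by limma (adjusted p = 0.0728) and was called higher by voom (1.36, adjusted p = 0.0178). No endothelial gene reached the minimum of the limma fit, and voom called 2 of 3 higher, *Pecam1* (0.80, adjusted p = 0.0112) and *Cdh5* (0.71, adjusted p = 0.0344). Acinar markers summed to 9.99 and 28.2 RPKM at 2.8 mM and 24.8 and 55.2 RPKM at 16.8 mM, higher in replicate 2 of both groups. The limma fit called 0 of 4, and voom called 3 of 5 higher, *Cpb1* (1.18, adjusted p = 0.0447), *Cela2a* (1.14, adjusted p = 0.0332) and *Pnlip* (1.36, adjusted p = 0.0225). The library with the highest *Ucn3* was also that with the most acinar RNA, and the part of acinar, duct or endothelial RNA in the results was not tested. No marker of any list was at 0.

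The transcripts whose pattern was closest to the tested members were found by the Euclidean distance between centred log2 values over the 4 libraries, among 7867 transcripts. For *Ucn3* these were the microRNA entries *Mir6922* (distance 0.114), *Mir7075* (0.156) and *Mir5114* (0.163). In limma *Mir6922* and *Mir7075* passed (adjusted p = 0.0118 and 0.0115) and *Mir5114* did not (adjusted p = 0.0873). Whether reads in these entries came from the microRNAs or from other transcripts over them was not tested. *Mir6922* had 6.32 and 6.51 RPKM at 2.8 mM and 9.12 and 11.2 RPKM at 16.8 mM. For *Sstr3* the closest was *Cct7*, a subunit of the chaperonin that folds actin and tubulin, with 11.4 and 10.7 RPKM at 2.8 mM and 6.61 and 6.44 RPKM at 16.8 mM and a log2 difference of -0.71 (distance 0.0229). With 4 libraries in 2 groups, such a distance mostly repeats the difference between the groups.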

How the data were processed

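Total RNA of isolated islets was made into TruSeq libraries and sequenced as single reads of 50 bases, in 4 libraries. The authors deposited 1 table of RPKM values, with 33923 entries (28047 distinct), and its 4 columns of sample values were all used. The submitters' processing notes name STAR, bedtools, DESeq and mm9, and whether strand was used in counting is not given in the sources used here. The table holds no counts, so the count test the study names was not the main test. Depth was recovered from the steps of low values over Gencode spans (7942 genes), and reads were reconstructed where Gencode held the gene, for 87.7% of entries. For abundant entries of genes with several spans the longest coding span was assumed, so their reads can be too many. *Ins2* came to 22073423 reads in 2.8 mM replicate 1, at a depth of 58360000 reads. The voom fits used these reads. The test ran on log2(RPKM + 0.5) of transcripts whose mean reached 1 RPKM, with limma 3.58.1 in R 4.3.3 (variance trend, empirical Bayes, Benjamini-Hochberg adjustment at 0.05), and entries of a gene with identical values entered once. voom was run on reconstructed reads with a mean of at least 20 and, chosen after the values were seen, at least 5. On simulated data for this comparison (6881 tested transcripts), limma recovered 99.5% of 197 changed transcripts. Of what it called, 11.7% had been left unchanged (the threshold aims at 5%). A log2 change of 1 came out at a median of 0.87. The simulated libraries were independent, with a fixed spread beyond counting error and about as many transcripts changed up as down. In the data 33.4% of tested transcripts were called, most of them lower, so the simulated shares need not hold there. Recovery of log2 differences smaller in size, such as those of *Ucn3* and *Sstr3*, was not tested. Figures and summaries used Python 3.11.15, pandas 2.3.3, numpy 2.4.6 and matplotlib 3.10.9. Coding sequences were aligned with Biopython 1.88.

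The 8 genes and all lists were chosen with earlier results of these data known. The text names the 8 genes, the genes of the pathway lists that passed or are *Sst*, *Crh*, *Ucn* or *Crhbp*, the cell type markers, and the closest patterns (3 for *Ucn3*, 1 for each tested receptor); other genes of the lists named with values were chosen after these were seen. Alternatives were quantile normalization, centring on the median, no variance trend, no minimum, 1 RPKM in every library, 0.1 or 1 RPKM added, 1 entry per gene, the replicate number as a block, voom, and leaving out each library. The voom result of the alpha cell list is not reported here. Limits on zeros assume 3 reads and cover counting error only.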

Additional observations from a re-analysis of the deposited data

How the results depend on the processing

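*Sstr3* was lower at 16.8 mM and past the threshold in 16 of 17 alternatives (log2 difference -0.75 to -0.62, adjusted p = 5.0e-05 to 0.0512 by limma or limma voom), and *Ucn3* was higher in all 17 and past it in 13 (0.44 to 0.75, adjusted p = 1.7e-04 to 0.139). *Ucn3* missed it after quantile normalization (0.63, adjusted p = 0.0537), with no minimum (0.59, adjusted p = 0.0897), with no minimum and the replicate block (0.59, adjusted p = 0.0512) and without 16.8 mM replicate 2 (0.44, adjusted p = 0.139), and *Sstr3* with no minimum and the block (-0.71, adjusted p = 0.0512); the causes were not tested. Leaving out a library gave 0.44 to 0.75 for *Ucn3* and -0.75 to -0.66 for *Sstr3*. Of all transcripts, 2628 were called, 838 higher and 1790 lower (31.9% of calls higher). Quantile normalization called 1576 higher and median centring 1662, with 42.3% and 44.1% of calls higher. Leaving out a library gave 2039 to 2734 calls, 720 to 908 higher and 1131 (without 2.8 mM replicate 1) to 2014 lower. voom called 6828 (2158 higher, 4670 lower), and with at least 5 reads 6715 (2148 and 4567). Same-numbered libraries deviated together (correlation 0.31 over 7867 transcripts), but the labels give no shared batch and there are only 2 pairs. The replicate block gave 4067 calls (2835 lower), *Ucn3* at adjusted p = 0.0133 and *Sstr3* at 0.0107, and voom with the block 9602 (3136 and 6466). With the block and no minimum, limma called 0 transcripts (0 higher, 0 lower) while 10521 had an unadjusted p under 0.05. In the pathway lists 2 genes were called, and 4 after quantile normalization, centring, no minimum or 1 RPKM in every library, 5 with the block, 10 with voom, 13 with voom and the block, 9 with at least 5 reads and 0 with the block and no minimum. Leaving out a library gave 2 to 3. The share of *Sstr3* (95.9% at 2.8 mM and 92.0% at 16.8 mM) was 94.4% and 89.3% per kilobase of exons and 96.5% and 92.8% with the other *Sstr2* entry. *Crhr1*, *Crhr2*, *Sstr1*, *Sstr4* and *Sstr5* rest on 0 to 46 reads a library, and every result on 2 libraries a group.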

Other observations

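*Gnas*, whose locus produces several transcripts from separate promoters, was represented by 6 entries with different values. The entry with the highest mean (NM_201616) had 50.5 and 44.5 RPKM at 2.8 mM and 50.7 and 45.5 RPKM at 16.8 mM. A lower entry of the same symbol (NM_201617) had 0.837 and 0.955 RPKM at 2.8 mM and 2.59 and 2.09 RPKM at 16.8 mM, with a log2 difference of 1.02 (adjusted p = 9.8e-04 by limma). The other 4 entries did not pass, with log2 differences of 0.03 to 0.28. This entry was chosen after its values were seen, and the entries share part of their span, so their reads are not independent.

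*Grk6*, a receptor kinase just under the minimum (mean 0.987 RPKM), had 1.16 and 1.17 RPKM at 2.8 mM and 0.853 and 0.766 RPKM at 16.8 mM, and voom on reconstructed reads called it lower (-0.52, adjusted p = 0.0045). It was chosen after its values were seen.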
